A study of Homo sapiens with 3 samples.

Results

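The genes described here encode the aminoacyl-tRNA synthetases, the enzymes that load each amino acid onto its tRNA. They were chosen by name among the protein-coding rows of the gene count table. Their counts were not a criterion, but earlier results of these data were known. The cytosolic group has the symbols with a 1-letter amino acid code and ARS or ARS1, together with EPRS1, FARSA and FARSB, and the mitochondrial group has the symbols ending in ARS2. This gave 37 genes, 20 cytosolic and 17 mitochondrial, of 58037 genes in the table and 19629 protein-coding ones. Pseudogenes were left out, and all 37 genes were well above the minimum of 1 CPM (counts scaled to a common library size) asked of the comparison genes, the lowest count being 191 for PARS2 in OLFM4-wild cells.

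Human cells translate in the cytosol and, separately, in mitochondria, and most amino acids have a nuclear-encoded synthetase for each compartment. GARS1 and KARS1 each serve both compartments from a single gene, and QARS1 has no mitochondrial partner because mitochondrial glutaminyl-tRNA is made by a transamidase. EPRS1 joins glutamyl- and prolyl-tRNA synthetase in 1 protein, and phenylalanyl-tRNA synthetase of the cytosol is built from the subunits encoded by FARSA and FARSB. Several cytosolic enzymes sit together in the multi-synthetase complex on the scaffold proteins AIMP1, AIMP2 and EEF1E1. Many cytosolic synthetase genes are induced by the transcription factor ATF4 when amino acids run short, whereas MYC drives genes of translation in growing cells.

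RWPE1 is an immortalized line from normal adult human prostate epithelium. OLFM4, a secreted glycoprotein of epithelial progenitor cells, had been targeted in it by CRISPR/Cas9, together with a GFP reporter. Double nickase plasmids served for the knockout and activation plasmids for activation. The study's methods give the RNA as from cells sorted for GFP, and its results name this sorting for the OLFM4-knockout cells. The labels do not say whether the OLFM4-wild library came from reporter cells or was sorted. There was 1 bulk RNA library each from OLFM4-wild cells, OLFM4-knockout cells and cells labelled OLFM4-active, all 3 in the RWPE1 background. The study speaks of clones and its methods of stable lines selected with puromycin. The methods name the activation plasmids for the OLFM4-wild reporter cells, and the labels do not say how the cells labelled OLFM4-active differed from these. With 1 library per condition there were no replicates and no test, so every comparison is between libraries. Each interval of a level, a fold change or a count ratio within a library is a Clopper-Pearson interval, exact at 95%. Intervals of a change in a count ratio between libraries are 95% normal approximations on the log2 scale. All cover counting error only and treat reads as independent molecules although no molecular identifiers were used.

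Total counts were 16309906 in OLFM4-wild cells, 58837147 in OLFM4-knockout cells and 23224216 in the OLFM4-active-labelled library. OLFM4 itself had 214, 131 and 16 counts in the same order, or 11.8, 2.55 and 0.670 CPM, so the library labelled OLFM4-active went against its label. The basal markers KRT5, KRT14, TP63 and ITGA6 summed to 17819, 39427 and 21290 CPM, and the luminal markers to 461, 424 and 306 CPM, nearly all of it KRT8 and KRT18, with KLK3 under 1 CPM in each library. Leukocyte, endothelial and neuroendocrine markers summed to less than 1 CPM each in every library, and stromal markers to 34.0, 31.7 and 22.8 CPM, with COL3A1 and LUM at 0 throughout. CPM values were scaled by TMM, which assumes that most genes do not differ between libraries. TMM placed log2 fold changes 0.35 above those from library totals in OLFM4-knockout minus OLFM4-wild and 0.12 above them in the OLFM4-active-labelled library minus OLFM4-wild. In bulk RNA, fewer cells of a type and less RNA per cell cannot be told apart.

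Cytosolic synthetase RNA was several times as abundant as mitochondrial synthetase RNA in all 3 libraries. Levels between genes are given as CPM per kilobase of the canonical transcript. On this scale the median cytosolic gene stood at 43.4 in OLFM4-wild cells, 58.9 in OLFM4-knockout cells and 65.4 in the OLFM4-active-labelled library. The median mitochondrial gene stood at 7.46, 10.7 and 9.39. Cytosolic genes therefore held 86.4% of the summed level in OLFM4-wild cells, 84.9% in OLFM4-knockout cells and 86.7% in the OLFM4-active-labelled library, a range of less than 2 percentage points. With other definitions of gene length this share lay between 81.6% and 84.9%.

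The most and least abundant genes of each group were nearly the same in the 3 libraries. TARS1, the threonyl enzyme, was the most abundant cytosolic gene in OLFM4-wild cells, at 121 CPM per kilobase. EPRS1 was the most abundant in the other libraries, at 142 in OLFM4-knockout cells and 210.1 in the OLFM4-active-labelled library. FARSB, the beta subunit of the phenylalanyl enzyme, was the lowest cytosolic gene, at 7.02, 7.81 and 14.2 CPM per kilobase, a value that rests on a canonical transcript of 6761 bases. Among mitochondrial genes IARS2, the isoleucyl enzyme, was the most abundant, at 38.9, 55.5 and 65.3 CPM per kilobase. LARS2, the leucyl enzyme, was the lowest, at 3.27, 3.19 and 2.84. Of 18 pairs of a cytosolic and a mitochondrial gene for the same amino acid, the cytosolic gene had the higher level per length in 18, 16 and 17 pairs of the 3 libraries, taken in the order above.

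**Figure D1:**
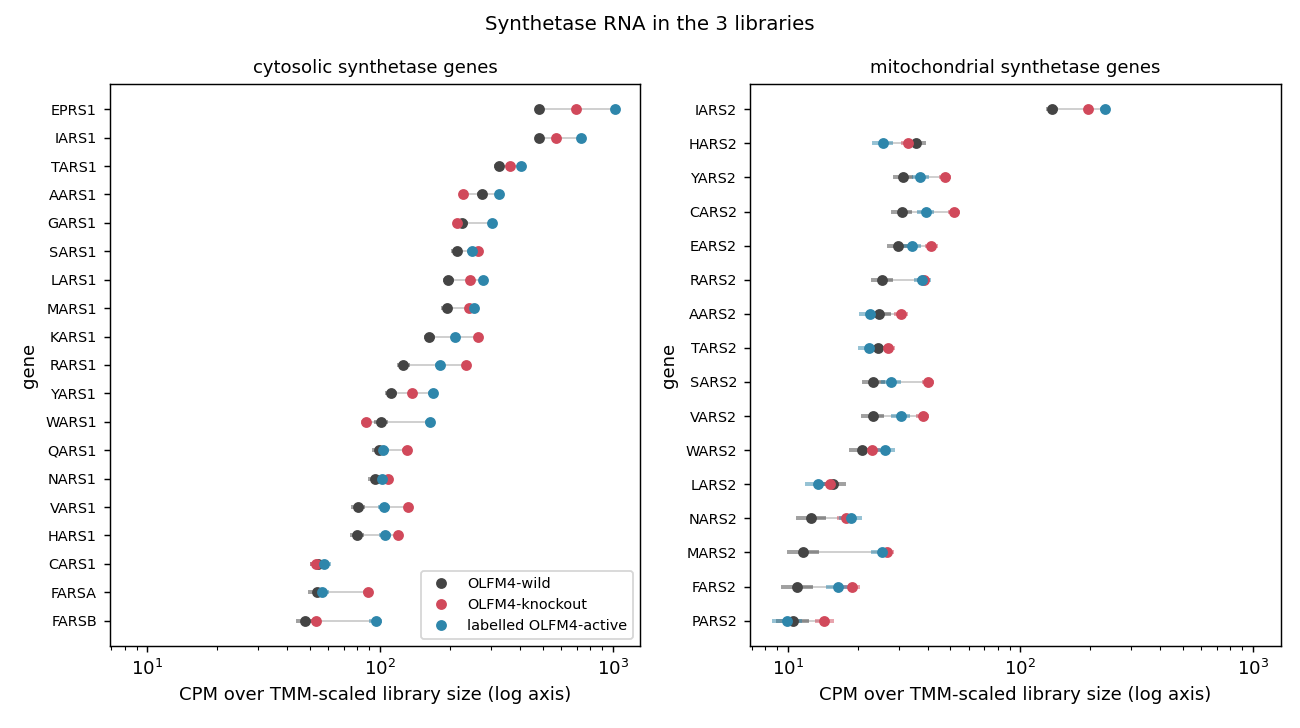
RNA of cytosolic (left) and mitochondrial (right) synthetase genes, all but 1 of each group, as CPM over the TMM-scaled library size on a log axis, 1 point per library with its 95% counting interval as a bar. Cytosolic genes lay between 47.4 and 1021 CPM and mitochondrial genes between 9.96 and 230.6 CPM, and the OLFM4-wild point was the lowest of the 3 for most genes. With library totals it would not be the lowest for most genes.

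In OLFM4-knockout minus OLFM4-wild both groups lay above the protein-coding genes as a whole, the mitochondrial group further than the cytosolic one. The median log2 fold change was 0.49 over the mitochondrial genes and 0.31 over the cytosolic genes, against 0.10 over the 12795 protein-coding genes that averaged 1 CPM or more. With library totals the mitochondrial median was 0.14 and the cytosolic median turned to -0.04, against -0.26 over the protein-coding genes. The cytosolic median was 0.18 below the mitochondrial one, a difference on the log2 scale that does not depend on library scaling.

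Of the 20 cytosolic genes 16 lay above 0 with TMM and 8 with library totals, and of the 17 mitochondrial genes 15 and 12 did, where 57.2% and 31.8% of protein-coding genes did. Past 1.5-fold upward were 5 of the 20 cytosolic and 7 of the 17 mitochondrial genes, the latter 41.2%, against 17.6% of protein-coding genes. None of the 37 was past 1.5-fold downward, against 14.8% of protein-coding genes. With library totals 0 cytosolic and 1 mitochondrial gene stayed past 1.5-fold, against 5.47% of protein-coding genes. Long transcripts were lower than short ones in this comparison over all protein-coding genes, the median going from 0.36 in the shortest of 4 equal classes of transcript length to -0.15 in the longest. Of the members, 10 cytosolic and 8 mitochondrial genes were in the second class, where the median was 0.17. Set against genes of the same class of expression and of length, the cytosolic median was 0.05 and the mitochondrial median 0.30, so the cytosolic group was near genes of like length and level, and the part that length has in these values was not tested further.

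**Figure D2:**
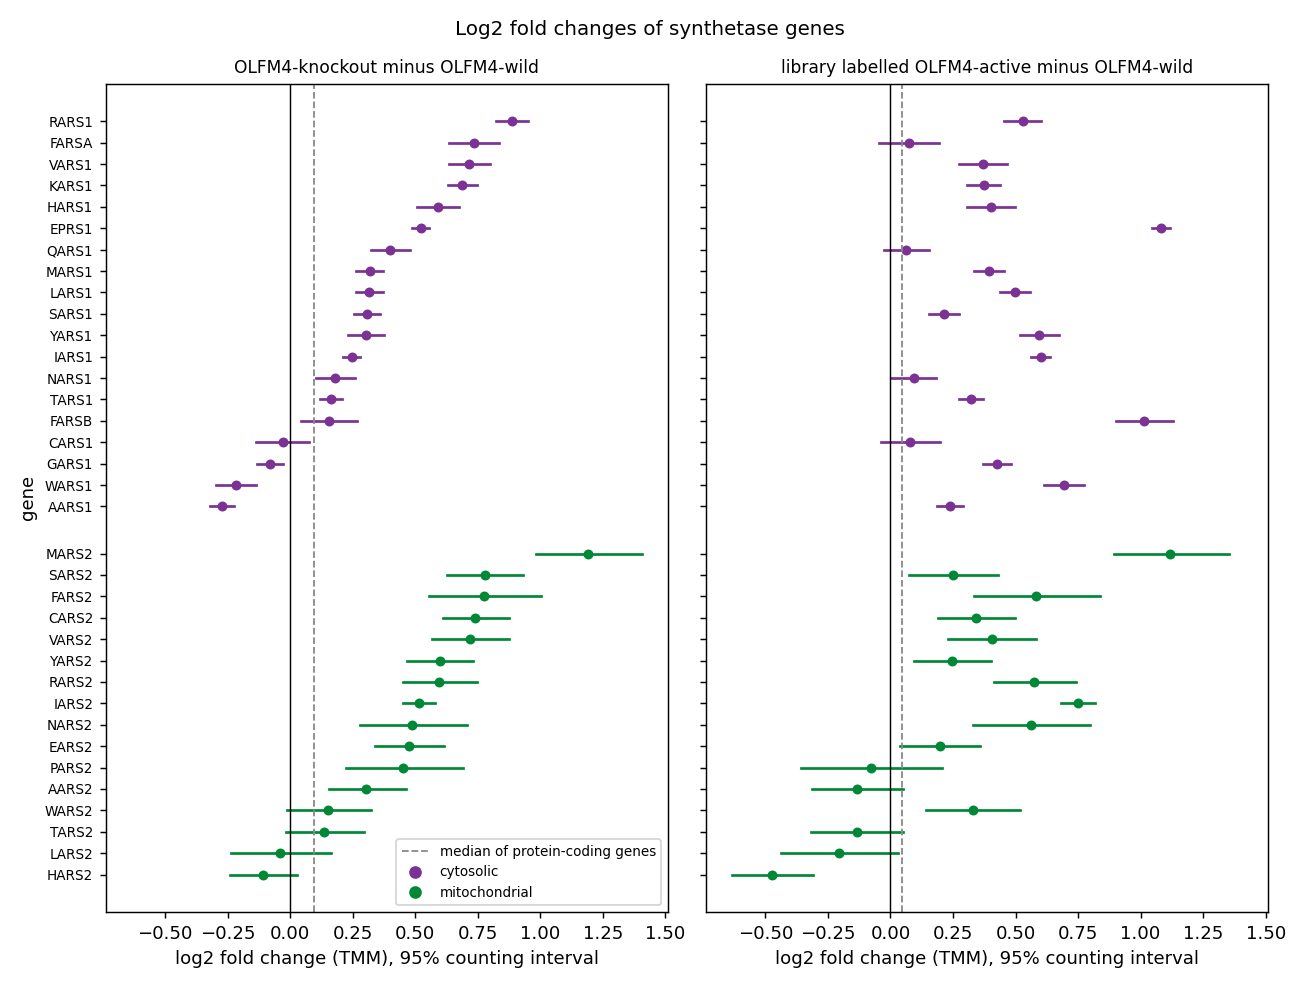
Log2 fold changes (TMM) of the synthetase genes, all but 1 of each group, in OLFM4-knockout minus OLFM4-wild (left) and in the OLFM4-active-labelled library minus OLFM4-wild (right), with 95% counting intervals, cytosolic genes above and mitochondrial genes below, sorted by the left panel. The dashed line is the median of protein-coding genes, 0.10 on the left and 0.05 on the right, and with library totals every point on the left would lie 0.35 lower, which takes 8 cytosolic and 3 mitochondrial genes to the other side of 0.

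The 5 cytosolic genes highest in OLFM4-knockout minus OLFM4-wild were RARS1, FARSA, VARS1, KARS1 and HARS1. RARS1, the arginyl enzyme and a member of the multi-synthetase complex, had 2292 counts or 126 CPM in OLFM4-wild cells, 11971 or 233 CPM in OLFM4-knockout cells and 4346 or 182 CPM in the OLFM4-active-labelled library. Its log2 fold change of 0.89 (95% interval 0.82 to 0.95) in OLFM4-knockout cells was the largest of the cytosolic group, and it was 0.53 (0.46 to 0.60) in the OLFM4-active-labelled library. VARS1, the valyl enzyme, stood at 80.6, 132 and 104 CPM. The OLFM4-knockout library was the highest of the 3 for both genes, with log2 fold changes against OLFM4-wild of 0.72 (0.64 to 0.80) for VARS1 and 0.89 for RARS1.

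KARS1, the lysyl enzyme of both the cytosol and mitochondria, stood at 163 CPM in OLFM4-wild cells, 262 CPM in OLFM4-knockout cells and 211 CPM in the OLFM4-active-labelled library. Its log2 fold changes against OLFM4-wild were 0.69 (0.63 to 0.75) and 0.37 (0.31 to 0.44). GARS1, the glycyl enzyme and the other gene that serves both compartments, ran differently, at 226, 214 and 304 CPM. It was slightly lower in the OLFM4-knockout than in OLFM4-wild cells, by a log2 fold change of -0.08 (-0.13 to -0.03), and higher in the OLFM4-active-labelled library, by 0.43 (0.37 to 0.48).

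At the other end, AARS1, WARS1 and GARS1 were the lowest cytosolic genes in OLFM4-knockout minus OLFM4-wild, and CARS1 was the fourth below 0. AARS1, the alanyl enzyme, had 4990 counts or 275 CPM in OLFM4-wild cells, 11671 or 227 CPM in OLFM4-knockout cells and 7743 or 324 CPM in the OLFM4-active-labelled library. Its log2 fold change was -0.27 (-0.32 to -0.22) in OLFM4-knockout cells and 0.24 (0.19 to 0.29) in the OLFM4-active-labelled library, so the libraries lay on opposite sides of OLFM4-wild. CARS1, the cysteinyl enzyme, hardly differed between libraries, at 54.2, 53.1 and 57.3 CPM. The remaining 11 cytosolic genes, among them IARS1, LARS1, MARS1, NARS1, QARS1, SARS1, TARS1 and YARS1, ran from 0.15 for FARSB to 0.52 for EPRS1. Among the 16 cytosolic genes above 0 with TMM, 8 turned below 0 with library totals, those nearest to 0 being MARS1 and LARS1, each at -0.04, the methionyl and leucyl enzymes of the multi-synthetase complex.

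MARS2, the mitochondrial methionyl enzyme, showed the largest log2 fold change of all 37 members in OLFM4-knockout cells. It is a gene of 1 exon on the plus strand at chr2:197705369-197708395, and it shares that strand with another annotated gene, so reads over the shared stretch are uncertain. It had 212 counts or 11.7 CPM (95% interval 10.1 to 13.3) in OLFM4-wild cells, 1369 counts or 26.7 CPM (25.3 to 28.1) in OLFM4-knockout cells and 606 counts or 25.4 CPM (23.4 to 27.5) in the OLFM4-active-labelled library. The OLFM4-wild library was thus the low one, and the other libraries differed by a log2 value of only 0.07 (-0.07 to 0.21). The log2 fold changes against OLFM4-wild were 1.19 (0.98 to 1.41) and 1.12 (0.89 to 1.35), or 2.28-fold and 2.17-fold, at percentiles 97.6 and 98.1 of the protein-coding genes. MARS2 was the only member past 2-fold in OLFM4-knockout minus OLFM4-wild, where 4.31% of protein-coding genes were. Its cytosolic counterpart MARS1 had log2 fold changes of 0.32 and 0.39, so the count ratio of MARS1 to MARS2 was 16.6 (14.4 to 19.1) in OLFM4-wild cells, 9.04 (8.55 to 9.57) in OLFM4-knockout cells and 10.02 (9.22 to 10.9) in the OLFM4-active-labelled library.

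A promoter window of MARS2 holds an E-box, the palindrome CACGTG that MYC and related factors bind. This motif and those of later paragraphs were chosen after the values were seen. Promoters here are the 250 bases before to 50 after each start that RefSeq lists for a gene on GRCh38.p14, and 30 of the 37 members had one, 16 cytosolic and 14 mitochondrial. Of these 30 genes 9 have more than 1 listed start, as do 5191 of all 27305 genes, and a gene was counted where any of its windows held the motif. CACGTG was in 3 of the 14 mitochondrial promoters, those of MARS2, CARS2 and EARS2, in 1 of the 16 cytosolic promoters, that of IARS1, and in 8.77% of all genes. The windows of 30 bases below are shown because they place the element within 15 bases before a listed start of each mitochondrial gene. They are given 5′ to 3′ on the strand of the gene, with CACGTG in capitals, from chr2:197705346-197705375 on the plus strand, chr13:110706501-110706530 on the minus strand and chr16:23557348-23557377 on the minus strand.
MARS2: atgcgcctctcaCACGTGctgtcagaacgc
CARS2: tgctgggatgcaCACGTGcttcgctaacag
EARS2: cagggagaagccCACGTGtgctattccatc
The element begins 11 bases before the start in MARS2, and 3 and 15 bases before 1 of the 2 listed starts in CARS2 and EARS2. The log2 fold changes of these 3 genes in OLFM4-knockout minus OLFM4-wild were 1.19, 0.74 and 0.48, and in the OLFM4-active-labelled library minus OLFM4-wild 1.12, 0.34 and 0.20. IARS1, the cytosolic gene with the element, had 0.25 and 0.60. SARS2 and FARS2, whose windows hold no CACGTG, had 0.78 and 0.77 in OLFM4-knockout minus OLFM4-wild. MYC itself stood at 274 CPM in OLFM4-wild cells, 510.3 CPM in OLFM4-knockout cells and 486 CPM in the OLFM4-active-labelled library, with log2 fold changes of 0.90 (0.85 to 0.94) and 0.83 (0.78 to 0.87). A matching sequence is a description of the promoter, and binding was not measured.

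The other mitochondrial genes past 1.5-fold in OLFM4-knockout minus OLFM4-wild were SARS2, FARS2, CARS2, VARS2, YARS2 and RARS2, which charge serine, phenylalanine, cysteine, valine, tyrosine and arginine. SARS2 stood at 23.4 CPM in OLFM4-wild cells, 40.1 CPM in OLFM4-knockout cells and 27.8 CPM in the OLFM4-active-labelled library. FARS2 stood at 11.01, 18.9 and 16.5 CPM. The log2 fold changes of these 6 genes ran from 0.60 for RARS2 and YARS2 to 0.78 for SARS2, so they lay close together and below MARS2. HARS2 and LARS2 were the only mitochondrial genes below 0, and with TARS2, the threonyl enzyme at 24.5, 26.9 and 22.3 CPM, they were the 3 lowest. For HARS2, LARS2, TARS2 and WARS2, the tryptophanyl enzyme, the counting interval of the OLFM4-knockout change held 0. The remaining 6, among them EARS2, NARS2 and PARS2, ran from 0.30 for AARS2 to 0.51 for IARS2.

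HARS1 and HARS2, the cytosolic and mitochondrial histidyl enzymes, are neighbours on chromosome 5 that are read in opposite directions, with 84 bases between the starts of their canonical transcripts. HARS1 lies on the minus strand at chr5:140673035-140691537 and HARS2 on the plus strand at chr5:140691430-140699305. The stretch between their starts, chr5:140691371-140691454 on the plus strand of GRCh38.p14, is shown because both genes share it. Capitals mark the ETS-type element CCGGAAGT or its reverse complement.
HARS1-HARS2: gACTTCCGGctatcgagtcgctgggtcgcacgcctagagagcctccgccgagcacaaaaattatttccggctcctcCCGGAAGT
It has 2 such elements, 1 near each start, and 59.5% of its bases are G or C. The element was in promoter windows of 4.95% of all genes, in 5 of 16 cytosolic and in 3 of 14 mitochondrial ones.

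The pair did not run together across libraries. HARS1 stood at 79.6 CPM in OLFM4-wild cells, 119.8 CPM in OLFM4-knockout cells and 105 CPM in the OLFM4-active-labelled library. HARS2 stood at 35.6, 33.0 and 25.6 CPM. HARS1 was lowest and HARS2 highest in OLFM4-wild cells. The log2 fold changes against OLFM4-wild were 0.59 (0.51 to 0.67) and 0.40 (0.31 to 0.50) for HARS1, and -0.11 (-0.24 to 0.03) and -0.47 (-0.64 to -0.31) for HARS2. The count ratio of HARS1 to HARS2 was 2.24 (2.04 to 2.46) in OLFM4-wild cells, 3.63 (3.44 to 3.83) in OLFM4-knockout cells and 4.11 (3.76 to 4.49) in the OLFM4-active-labelled library. On the log2 scale this ratio was higher than in OLFM4-wild by 0.70 (0.54 to 0.85) and 0.88 (0.69 to 1.06), values that do not depend on library scaling. Each gene shares its strand with another annotated gene, HARS1 with DND1 and HARS2 with ZMAT2, so part of either count is uncertain.

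The 12 cytosolic synthetases that ATF4 is known to induce and the 8 others lay apart in OLFM4-knockout minus OLFM4-wild. The median log2 fold change of the 12 genes was 0.21, from -0.27 for AARS1 to 0.52 for EPRS1, and 0 of them passed 1.5-fold upward, against 17.6% of protein-coding genes. The 8 others, among them FARSA, HARS1, KARS1, QARS1 and VARS1, had a median of 0.64, from 0.15 for FARSB to 0.89 for RARS1, and 5 passed 1.5-fold. With library totals 1 of the 12 and 7 of the 8 were above 0, against 31.8% of protein-coding genes, and the medians were -0.14 and 0.29. In the library labelled OLFM4-active minus OLFM4-wild the medians were 0.41 and 0.37, so the split was not seen there. Set directly against the library labelled OLFM4-active, the OLFM4-knockout library had a median of -0.24 over the 12 genes, with 2 of them above 0, and 0.33 over the 8 others, with 7 above 0, where 57.2% of protein-coding genes were. Transcript length also differed between these sets. FARSA, HARS1 and KARS1 of the 8 others were in the shortest length class, but of the 12 only SARS1 was. Class medians over protein-coding genes fell with length from 0.35 to -0.18 in this last comparison, and also fell in OLFM4-knockout minus OLFM4-wild. They ran only from 0.03 to 0.06 in the library labelled OLFM4-active minus OLFM4-wild. The part that length has in the split was not tested.

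The sequence recognised by ATF4 with C/EBP partners, TGATGNAA on either strand, was found mainly in this list. The list was set with earlier results of these data known, and the element was chosen after the values were seen. The split by element below is therefore not independent of the split by list. It was in 7 of the 10 promoters at hand from the ATF4-inducible genes, in 0 of 6 from the other cytosolic genes, in 1 of 14 mitochondrial promoters, that of YARS2, and in 4.46% of all genes. The windows of 30 bases below are shown because they carry the element in 6 of these 7 genes, on the strand of each gene and with the element in capitals. They come from chr16:70289675-70289704 (minus strand), chr7:30594834-30594863 (plus), chr11:3057407-3057436 (minus), chr5:33440956-33440985 (plus), chr9:92293692-92293721 (minus) and chr12:57488053-57488082 (plus).
AARS1: ttttctcgcagTTGCATCAgccaagttaga
GARS1: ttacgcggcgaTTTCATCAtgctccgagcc
CARS1: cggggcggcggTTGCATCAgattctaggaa
TARS1: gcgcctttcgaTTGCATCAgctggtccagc
IARS1: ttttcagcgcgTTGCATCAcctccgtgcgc
MARS1: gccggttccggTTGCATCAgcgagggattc
All 6 carry the element in the reverse orientation, and in the seventh, NARS1, it lies in the same orientation as the gene. Over the 7 genes the median was 0.16, from -0.27 to 0.32, in OLFM4-knockout minus OLFM4-wild, against 0.52, from -0.22 to 0.89, over the 9 cytosolic genes with a promoter and no such element. In the library labelled OLFM4-active minus OLFM4-wild the medians were 0.32 and 0.40. With library totals each of these values is lower by the shift given above, which leaves the differences between the sets as they are. FARSA, HARS1, KARS1 and SARS1, the cytosolic genes of the shortest length class, are all among the 9, and the part of length was not tested here either.

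**Figure D3:**
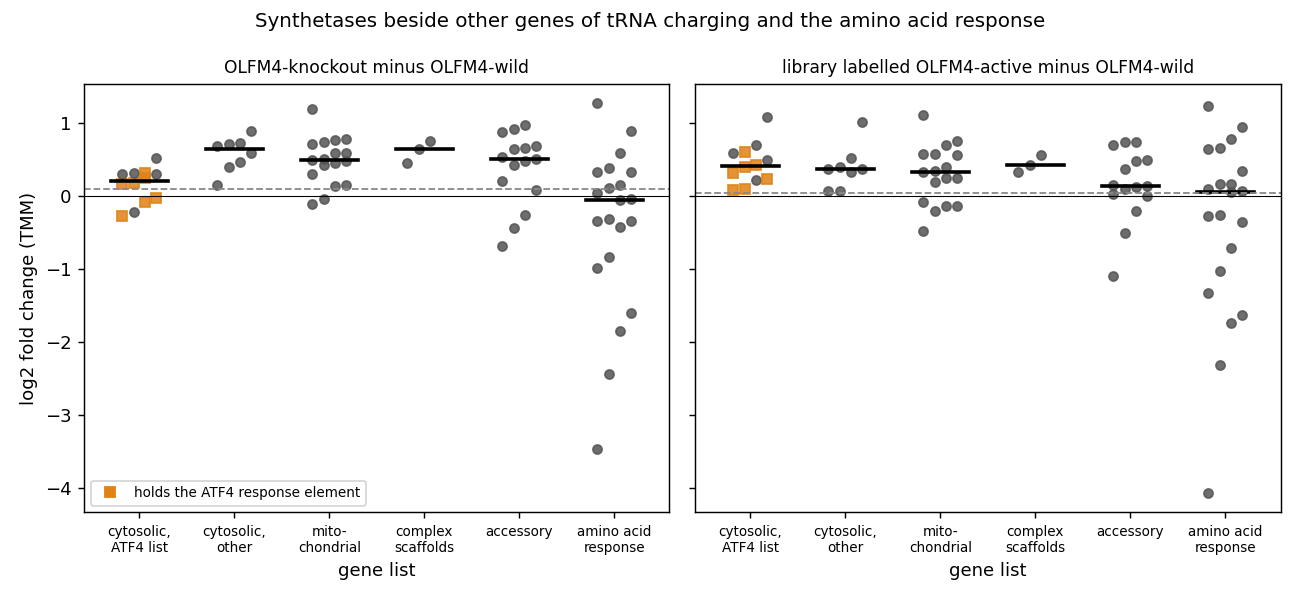
Log2 fold changes (TMM) by gene list in OLFM4-knockout minus OLFM4-wild (left) and in the OLFM4-active-labelled library minus OLFM4-wild (right), 1 point per gene, with a bar at each list's median and a dashed line at the median of protein-coding genes. Orange squares are the 7 cytosolic genes with the ATF4 element, between -0.27 and 0.32 on the left, where the median of the ATF4-inducible list is 0.21 and that of the other cytosolic genes 0.64. All points on the left would lie 0.35 lower with library totals.

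Other genes of the amino acid response did not run as a block. Over 21 such genes the median log2 fold change was -0.06 in OLFM4-knockout minus OLFM4-wild and 0.06 in the OLFM4-active-labelled library minus OLFM4-wild. CHAC1, which degrades glutathione, had 594 counts in OLFM4-wild cells, 151 in OLFM4-knockout cells and 46 in the OLFM4-active-labelled library, with log2 fold changes of -3.47 (-3.74 to -3.21) and -4.07 (-4.55 to -3.65). DDIT3, the stress transcription factor CHOP, stood at 41.2, 11.4 and 13.2 CPM, and SESN2, a leucine sensor, at 36.5, 12.0 and 7.32 CPM. VLDLR, a lipoprotein receptor, stood at 9.58, 1.75 and 3.81 CPM. These 4 genes were the ones below 2-fold in OLFM4-knockout cells, where 6.93% of protein-coding genes were. SLC3A2, the heavy chain of amino acid transporters, was the 1 gene above 2-fold, at 447 CPM in OLFM4-wild cells, 1082 CPM in OLFM4-knockout cells and 708 CPM in the OLFM4-active-labelled library. Its partner SLC7A5, a leucine transporter, stood at 1175, 2185 and 2270 CPM. ASNS, asparagine synthetase, was highest in the OLFM4-active-labelled library, at 190.0 CPM, against 111 CPM in the OLFM4-wild and 89.3 CPM in OLFM4-knockout cells. ATF4 stood at 251, 243 and 153 CPM, so the library with the lowest ATF4 RNA was the one labelled OLFM4-active.

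The 8 enzymes of the multi-synthetase complex were all above 0 in OLFM4-knockout minus OLFM4-wild with TMM and 5 of them with library totals, against 57.2% and 31.8% of protein-coding genes. Their median log2 fold change was 0.43, from 0.25 for IARS1 to 0.89 for RARS1, whereas the 12 cytosolic enzymes outside the complex had a median of 0.17. The scaffold genes followed the higher values, AIMP1 at 0.45 (0.34 to 0.56), AIMP2 at 0.65 (0.54 to 0.76) and EEF1E1 at 0.76 (0.58 to 0.94), and all 3 stayed above 0 with library totals. EEF1E1, which anchors MARS1 in the complex, stood at 17.3 CPM in OLFM4-wild cells, 29.3 CPM in OLFM4-knockout cells and 25.6 CPM in the OLFM4-active-labelled library. In the latter library minus OLFM4-wild the medians were 0.45 for the enzymes, 0.35 for the cytosolic enzymes outside the complex and 0.43 for the scaffolds. AIMP2 and EEF1E1, at 1198 and 1047 bases, were in the shortest length class, and AIMP1, at 2773 bases, in the second. Protein-coding medians of these classes were 0.36 and 0.17 in OLFM4-knockout minus OLFM4-wild, and the part of length was not tested.

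In the library labelled OLFM4-active minus OLFM4-wild all 20 cytosolic genes lay above 0 by TMM and 16 by library totals, against 54.1% and 43.7% of protein-coding genes, and 12 of the 17 mitochondrial genes were above 0 under either scaling. The median log2 fold change was 0.38 over the cytosolic and 0.33 over the mitochondrial genes, against 0.05 over the protein-coding genes. Past 1.5-fold were 5 cytosolic genes, EPRS1, FARSB, WARS1, IARS1 and YARS1, and 3 mitochondrial genes, MARS2 and IARS2 among them, against 10.3% of protein-coding genes. The mitochondrial count was 5 with DESeq2 size factors or upper quartile factors and 6 after thinning. With library totals 2 cytosolic genes stayed past it, against 7.13%. This comparison uses the same OLFM4-wild library as the one before, so a deviation of that library enters both.

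EPRS1 was the largest cytosolic change here and 1 of 3 members past 2-fold upward, with MARS2 and FARSB, against 2.49% of protein-coding genes. It had 8764 counts or 482 CPM in OLFM4-wild cells, 35528 or 692 CPM in OLFM4-knockout cells and 24404 or 1021 CPM in the OLFM4-active-labelled library. Its log2 fold changes against OLFM4-wild were 0.52 (0.49 to 0.56) and 1.08 (1.05 to 1.12). The mitochondrial genes for the same amino acids, EARS2 and PARS2, were 0.20 and -0.08 in the OLFM4-active-labelled library. The count ratio of EPRS1 to EARS2 was 16.2 in OLFM4-wild cells, 16.7 in OLFM4-knockout cells and 29.9 in the OLFM4-active-labelled library. IARS2, at 137, 196 and 231 CPM, was highest in the OLFM4-active-labelled library as well.

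FARSA and FARSB, whose products form 1 enzyme, differed between libraries in different ways. FARSA had 971 counts or 53.4 CPM in OLFM4-wild cells, 4563 or 88.9 CPM in OLFM4-knockout cells and 1344 or 56.3 CPM in the OLFM4-active-labelled library. FARSB had 862 counts or 47.4 CPM, 2711 or 52.8 CPM and 2288 or 95.8 CPM. FARSA was thus highest in OLFM4-knockout cells and FARSB in the OLFM4-active-labelled library. The log2 fold changes against OLFM4-wild were 0.73 (0.63 to 0.84) and 0.07 (-0.05 to 0.20) for FARSA, and 0.15 (0.04 to 0.27) and 1.01 (0.90 to 1.13) for FARSB. The count ratio of FARSA to FARSB was 1.13 (1.03 to 1.24), 1.68 (1.61 to 1.77) and 0.587 (0.549 to 0.629) in the 3 libraries. Between the OLFM4-knockout library and the one labelled OLFM4-active it differed by 1.52 (1.40 to 1.64) on the log2 scale. FARSA, at 1811 bases, was in the shortest length class and FARSB, at 6761 bases, in the longest. Protein-coding medians of these classes were 0.36 and -0.15 in OLFM4-knockout minus OLFM4-wild. They were 0.35 and -0.18 in OLFM4-knockout minus the library labelled OLFM4-active, and 0.04 and 0.06 in the latter minus OLFM4-wild. The part that length has in this ratio was not tested. FARSB has 1 annotated pseudogene and FARSA none.

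**Figure D4:**
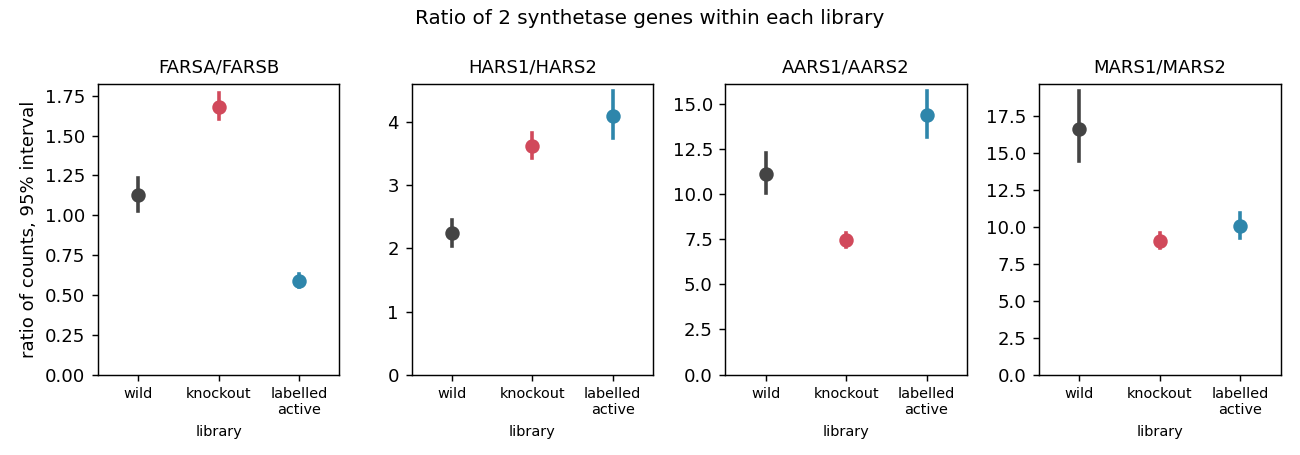
Ratio of the counts of a pair of synthetase genes within each library, with 95% counting intervals and axes starting at 0, from left to right FARSA to FARSB, HARS1 to HARS2, AARS1 to AARS2 and MARS1 to MARS2. The ratio of FARSA to FARSB was 1.13 in OLFM4-wild cells, 1.68 in OLFM4-knockout cells and 0.587 in the OLFM4-active-labelled library, and the intervals of the 3 libraries do not overlap. FARSA is in the shortest length class and FARSB in the longest, and the part of length was not tested.

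WARS1, the cytosolic tryptophanyl enzyme and the synthetase best known as an interferon-induced gene, had 1836 counts or 101 CPM in OLFM4-wild cells, 4466 or 87.0 CPM in OLFM4-knockout cells and 3906 or 163 CPM in the OLFM4-active-labelled library. Its log2 fold changes against OLFM4-wild were -0.22 (-0.30 to -0.14) and 0.69 (0.61 to 0.78), and it had the lowest value of all members, -0.91 (-0.97 to -0.85), in OLFM4-knockout minus the library labelled OLFM4-active. Interferon-induced genes ran otherwise in the OLFM4-active-labelled library, whereas in OLFM4-knockout cells they lay below OLFM4-wild as WARS1 did. Of 21 such genes IDO1 had no count in any library, where a floor of 3 counts stands at 0.165, 0.0584 and 0.126 CPM, and the median of the other 20 was -1.63 in OLFM4-knockout minus OLFM4-wild and -1.83 in the OLFM4-active-labelled library minus OLFM4-wild. None of them was above 0 in either comparison, and 15 and 16 of them were below 2-fold, against 6.93% and 6.55% of protein-coding genes. A promoter window of WARS1 holds an interferon response element, GAAA repeated after any 2 bases on either strand, which was in 4.38% of all genes, here from chr14:100375383-100375412 on the minus strand with the element in capitals, 55 bases before the inner of 2 starts that RefSeq lists 980 bases apart.
WARS1: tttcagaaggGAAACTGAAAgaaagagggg
EARS2 was the only other member with this element.

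Pairing the enzymes of each amino acid removed library scaling from the comparison of the groups. It did not remove the trend with transcript length, whose part in the pairs was not tested. FARSB and FARS2, at 6761 and 1679 bases, were in the longest and shortest length classes. MARS1 and MARS2, at 2797 and 3027 bases, were in the same class. The pairs are not independent, as EPRS1 was paired with both EARS2 and PARS2, and FARS2 with both FARSA and FARSB. In OLFM4-knockout minus OLFM4-wild the mitochondrial gene had the larger log2 fold change in 11 of 18 pairs and the cytosolic gene in 7. The counting interval of the difference was below 0, on the side of the mitochondrial gene, in 9 pairs, above 0 in 3 and held 0 in 6, with a median difference of -0.16. The pairs furthest toward the mitochondrial gene were MARS1 and MARS2 at -0.88 (-1.09 to -0.66), CARS1 and CARS2 at -0.77 (-0.94 to -0.60), FARSB and FARS2 at -0.62 (-0.87 to -0.38) and AARS1 and AARS2 at -0.58 (-0.74 to -0.42). FARSA, the other subunit gene, stood at -0.04 (-0.28 to 0.20) against FARS2. Those toward the cytosolic gene were HARS1 and HARS2 at 0.70, LARS1 and LARS2 at 0.36 (0.15 to 0.56) and RARS1 and RARS2 at 0.29 (0.13 to 0.45). In the library labelled OLFM4-active minus OLFM4-wild the pairs were divided evenly, 9 with the larger change in each group, and the median difference was 0.16. In OLFM4-knockout minus the library labelled OLFM4-active the mitochondrial gene had the larger value in 13 pairs and the cytosolic gene in 5, with the interval below 0 in 13, above 0 in 3 and holding 0 in 2, and a median difference of -0.39. AARS1 and AARS2 stood at -0.58 in the first comparison and at 0.37 (0.18 to 0.56) in the second.

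**Figure D5:**
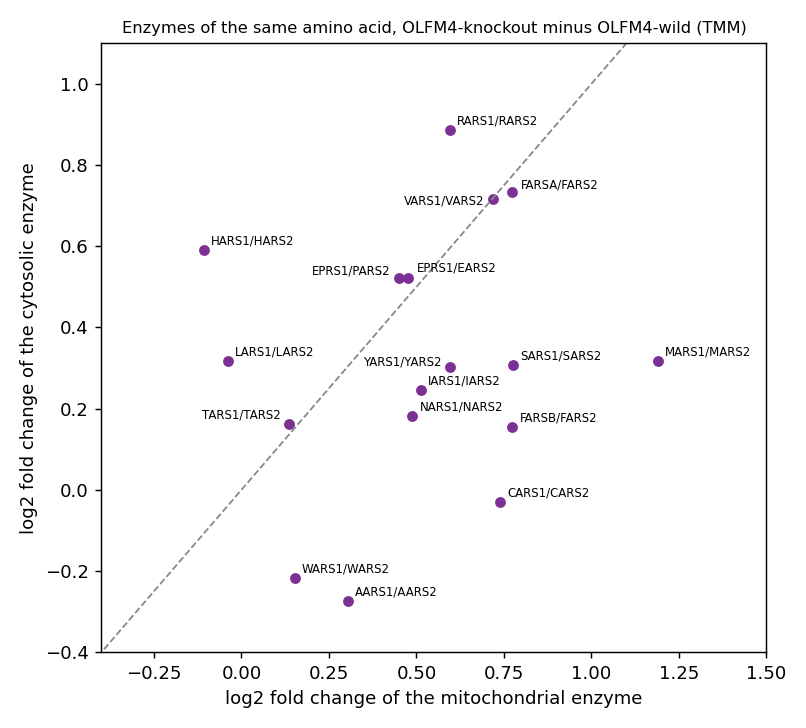
Log2 fold change (TMM) of the cytosolic enzyme against that of the mitochondrial enzyme for the same amino acid in OLFM4-knockout minus OLFM4-wild, 1 point for each of 17 of the 18 pairs, with a dashed line where both are equal. Of these, 11 lie below the line, MARS1/MARS2 furthest to the right at 1.19, and HARS1/HARS2 lies above it with HARS2 at -0.11. With library totals both axes would shift by 0.35 and no point would change its side of the line.

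Accessory genes of tRNA charging lay near the mitochondrial enzymes in OLFM4-knockout minus OLFM4-wild, with a median of 0.51 over 15 genes against 0.10 over the protein-coding genes, and nearer to the protein-coding genes in the OLFM4-active-labelled library minus OLFM4-wild, with a median of 0.13 against 0.05. Past 1.5-fold upward in the first comparison were 6 genes, PTRHD1, AARSD1, DTD2, GATB, PSTK and MTFMT, where 17.6% of protein-coding genes were, and 1 was past it downward, SEPSECS, where 14.8% were. GATB, a subunit of the mitochondrial transamidase that makes glutaminyl-tRNA, stood at 25.6 CPM in OLFM4-wild cells, 41.2 CPM in OLFM4-knockout cells and 27.8 CPM in the OLFM4-active-labelled library. Its partner GATC stood at 64.5, 91.7 and 70.7 CPM, so both were highest in OLFM4-knockout cells, and QRSL1, the catalytic subunit, at 33.3, 38.3 and 33.4 CPM, differed less. AARSD1, which edits mischarged alanyl-tRNA, stood at 10.02, 18.9 and 16.4 CPM. SEPSECS, which makes selenocysteine on its tRNA, was the lowest gene of the list in both comparisons, at 21.5 CPM in OLFM4-wild cells, 13.3 CPM in OLFM4-knockout cells and 10.1 CPM in the OLFM4-active-labelled library. TARS3, a further threonyl enzyme, is counted here because its symbol falls outside the naming rule for members. Its log2 fold changes against OLFM4-wild were -0.44 (-0.67 to -0.22) and -0.51 (-0.78 to -0.24), below those of every cytosolic member. XPOT, the nuclear export receptor for tRNA, stood at 319.7 CPM, 267 CPM and 446 CPM, with log2 fold changes of -0.26 (-0.30 to -0.22) and 0.48 (0.43 to 0.53), opposite in sign as for AARS1.

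Set directly against each other, the OLFM4-knockout library and the one labelled OLFM4-active had median log2 differences of -0.09 over the cytosolic and 0.27 over the mitochondrial genes, against 0.08 over protein-coding genes, and with library totals these were -0.33, 0.03 and -0.16. Past 1.5-fold upward was FARSA at 0.66 (0.57 to 0.75), where 12.8% of protein-coding genes were, and past 1.5-fold downward were WARS1 at -0.91 and FARSB at -0.86 (-0.94 to -0.78), where 9.42% were. Cytosolic genes ran from -0.91 to 0.66 and mitochondrial genes up to 0.53 for PARS2, the prolyl enzyme. With library totals 5 of the 20 cytosolic and 9 of the 17 mitochondrial genes were above 0, against 36.1% of protein-coding genes, in place of 9 and 13 with TMM, against 57.2%.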

How the data were processed

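The authors trimmed reads with cutadapt, aligned them to GRCh38 with HISAT2 and used featureCounts to count read pairs that mapped uniquely and in reverse orientation to a gene. The deposited table holds these whole-number counts per gene, not normalized, for 3 libraries, 1 per condition, and 0 further sample columns. From the counts, TMM factors of 1.11, 0.873 and 1.03 (OLFM4-wild, OLFM4-knockout, labelled OLFM4-active) were computed with edgeR 4.0.16 in R 4.3.3, and log2 CPM with an offset of 0.5 counts as in limma-voom. Python 3.11.15, numpy 2.4.6, pandas 2.3.3, scipy 1.17.1 and matplotlib 3.10.9 were used for the rest. No test was run. Intervals of levels, fold changes and count ratios within a library are exact Clopper-Pearson intervals at 95%. Those of a change in a count ratio between libraries are normal approximations at 95% on the log2 scale. A count of 3 corresponds to 0.165, 0.0584 and 0.126 CPM.

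GENCODE version 44 matched 56948 of 58037 gene identifiers (98.1%) and gave positions and canonical transcript lengths. Promoter sequences are from RefSeq on GRCh38.p14. The comparison genes are the 12795 protein-coding genes that averaged 1 CPM or more. Members and gene lists were chosen with earlier results of these data known, and the promoter motifs were chosen after the values were seen. All members were accounted for in counts and medians, some results on single genes are not reported here, and those named with values were any past 2-fold, the 5 highest and 3 lowest of each group in OLFM4-knockout minus OLFM4-wild, the most and least abundant per length, and EPRS1, HARS1, HARS2, GARS1, KARS1 and WARS1. Pairs and ratios with the clearest changes were named after their values were seen. Counts of 14 members that share a strand with another annotated gene, and of 11 with an annotated pseudogene, are uncertain to that extent. The calculation was tested on simulated counts with known fold changes and counting error alone. That check cannot speak to variation between libraries of a condition or to the trend with transcript length. Alternatives were library totals, size factors of DESeq2 1.42.0, upper quartile factors, other count filters and offsets, thinning to 16309906 counts, genes of like length and expression, and a reference of the OLFM4-active-labelled library. TMM without that library, other gene lengths and the leaving out of members that share a strand were added after seeing the data.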

Additional observations from a re-analysis of the deposited data

How the results depend on the processing

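Of the settings fixed at the outset, 96 values stayed within their counting error or within 1.5 times, 20 moved and 2 changed sign, and of those added after seeing the data 6 stayed and 7 moved. Many of the values that stayed could not have moved, so this tally overstates stability. The filter on low counts changes only the comparison genes, and group differences and cytosolic shares do not depend on library scaling. The offset does not enter OLFM4 CPM or the shares. With library totals the cytosolic median in OLFM4-knockout minus OLFM4-wild turned to -0.04 with 0 genes past 1.5-fold and the mitochondrial median was 0.14 with 1 gene, while in the library labelled OLFM4-active minus OLFM4-wild the cytosolic median was 0.27 with 2 genes. With TMM on genes of at least 10 CPM the medians in OLFM4-knockout minus OLFM4-wild were 0.15 with 1 gene past 1.5-fold and 0.32 with 3 genes, and the cytosolic median in the library labelled OLFM4-active was 0.28 with 3 genes. Upper quartile factors gave a cytosolic median of 0.23 in OLFM4-knockout minus OLFM4-wild. In the library labelled OLFM4-active 5 mitochondrial genes passed 1.5-fold with DESeq2 or upper quartile factors and 6 after thinning, since several lie close to that fold. Against genes of the same class of expression and length the medians were 0.052 and 0.30 in OLFM4-knockout minus OLFM4-wild, and 0.23 for cytosolic genes in the library labelled OLFM4-active. With that library as the reference the OLFM4-knockout medians were -0.093 and 0.27. The cytosolic share of the summed level was 84.7% in the thinned OLFM4-knockout library, 82.6%, 81.6% and 83.5% in the 3 libraries with the union of exons as length, and 84.3%, 82.8% and 84.9% with coding length. Without the members that share a strand with another gene, cytosolic minus mitochondrial was -0.16 in the library labelled OLFM4-active in place of 0.05. In OLFM4-knockout minus OLFM4-wild this difference lay between -0.20 and -0.16 in the settings for which it was computed. It was not computed for genes of like length and expression or for the changed reference, where the group medians given above lie further apart. Where no cause is given, the cause was not tested. No paired analysis was possible because each condition had 1 library. The OLFM4-wild library was the shallowest, which sets the width of the intervals, most for PARS2, FARS2 and MARS2, and no setting can separate a condition from its library.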
